A study of Mus musculus with 19 samples.

Results

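Interferon regulatory factors (IRFs) are transcription factors that bind interferon-stimulated response elements and related sites. The transcripts of 8 Irf genes, Irf1, Irf2, Irf3, Irf4, Irf5, Irf7, Irf8 and Irf9, are described here out of 56941 genes in the deposited tables, chosen as family members by gene name and not by their values. They were followed in cells of bronchoalveolar lavage, the fluid rinsed from the airspaces, which the labels call alveolar macrophages. The 4 groups were ICAM-1 null mice exposed to Staphylococcus aureus pHrodo bioparticles (n = 5), wild type mice exposed to them (n = 5), naive ICAM-1 null mice (n = 5) and naive wild type mice (n = 4), which makes 19 libraries. All mice were female and 7 to 8 weeks old, and the wild type strain was C57Bl/6J. ICAM-1 is an adhesion molecule that leukocyte integrins bind. Exposed mice had aspirated 100 µL of bioparticles at 2.27 mg/mL under isoflurane, 1 h before lavage. Neither the background of the null line, nor vehicle or anaesthetic for the naive mice, nor whether a library is a single mouse, is stated in the labels. In the genotype comparisons the loss of ICAM-1 and other differences between the lines therefore cannot be told apart, and p-values measure the spread between these libraries. In the exposure comparisons bioparticles, aspiration and isoflurane cannot be told apart either.

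IRF3 and IRF7 are held in the cytoplasm until kinases such as TBK1 and IKKε phosphorylate them downstream of nucleic acid sensors and Toll-like receptors, after which they switch on interferon genes. IRF9 binds DNA within the complex ISGF3, which carries the response to type I interferon, and IRF1 carries much of the response to interferon gamma, while IRF2 binds the same sites and opposes it. IRF5 acts downstream of MyD88 on inflammatory cytokine genes, and IRF4 and IRF8 act with partners such as PU.1 in myeloid and lymphoid cells.

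The libraries held 57.0 to 66.3 M estimated counts in exposed null, 42.6 to 61.0 M in exposed wild type, 59.8 to 78.8 M in naive null and 32.8 to 80.3 M in naive wild type mice. Naive wild type library 4 held 80.3 M against 32.8 to 41.0 M in the other 3. It had the lowest Irf5 and the highest Irf7 and Irf9 of its group, but Dixon's outlier test did not flag these values. Icam1 averaged 10.8 TPM in exposed null and 899 TPM in exposed wild type mice, and 8.13 TPM in naive null and 74.6 TPM in naive wild type mice. The summed level of 12 alveolar macrophage markers was 22840 to 28370 TPM in exposed null, 24080 to 27930 TPM in exposed wild type, 27710 to 29780 TPM in naive null and 23740 to 27790 TPM in naive wild type libraries, with none of the 12 at 0. More of the sum came from Chil3 than from the other 11 together. Of the 12, 4 rose and 2 fell after exposure in null mice and 8 rose and 3 fell in wild type mice. Of all tested genes, 21.4% rose and 23.4% fell in null mice, and 20.1% rose and 20.2% fell in wild type mice. Between genotypes 2 were higher and 2 lower in exposed null and 3 higher and 1 lower in naive null mice. The shares of all tested genes were 4.43% higher and 4.04% lower in exposed null mice, and 4.31% and 2.55% in naive null mice. Marco was higher (1.77 in exposed and 2.01 in naive mice on the log2 scale) and Car4 lower (−0.68 and −1.11) in null mice. The 8 B and plasma cell markers summed to 26.5 to 32.3 TPM in exposed null, 25.8 to 43.3 TPM in exposed wild type, 38.6 to 47.1 TPM in naive null and 43.4 to 55.2 TPM in naive wild type libraries. Most of that sum was Cd22, which averaged 28.4, 32.6, 41.4 and 46.7 TPM in the same groups, while Ms4a1 averaged at most 0.10 TPM. None of the 6 markers tested passed in any comparison.

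Exposure was followed by a change in which IRF transcripts dominated. Irf1, Irf4 and Irf5 rose and Irf2 and Irf8 fell in both genotypes, while Irf3, Irf7 and Irf9 did not pass the test in either. Thus 5 of the 8 members were called in null mice and 5 of 8 in wild type mice at an adjusted p under 0.05 (edgeR's quasi-likelihood F test with Benjamini-Hochberg adjustment over 20501 genes). With limma on log2(TPM + 1), 7 of 8 were called in each genotype, Irf3 and Irf9 being added as lower. Without naive wild type libraries 1 to 3 the count fit called 3 in wild type mice. In the count fit the background was also high. Of all tested genes, 44.8% were called in null mice (21.4% higher, 23.4% lower) and 40.2% in wild type mice (20.1% higher, 20.2% lower). The members moved in both directions: their median log2 fold change was 0.19 in null and 0.15 in wild type mice, against 0.02 and 0.02 over all tested genes. The median of its absolute value was 0.38 in null and 0.39 in wild type mice, below the 0.52 and 0.50 of all tested genes. All 8 members passed the filter on low counts, the lowest member value being 92 counts, for Irf4. In bulk samples, fewer cells of a type and less RNA per cell cannot be told apart.

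**Figure D1:**
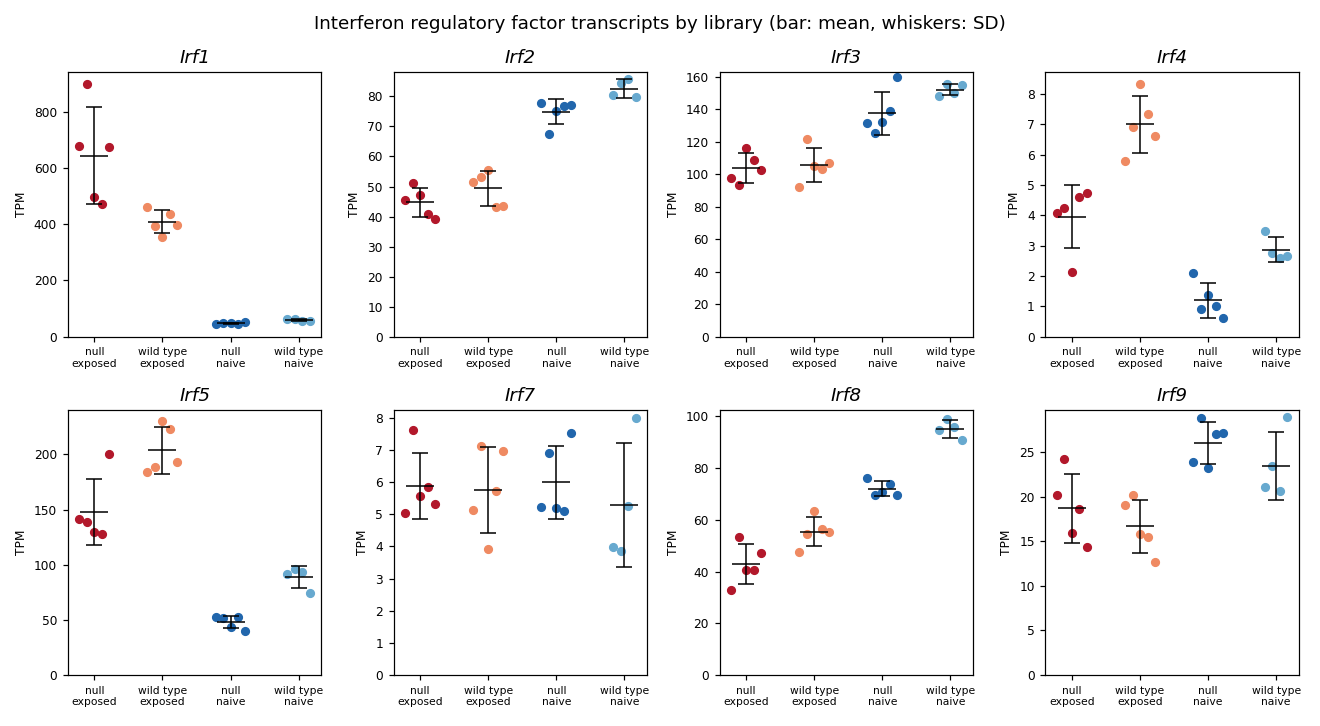
Level of each of the 8 Irf genes in TPM (abundance scaled for transcript length and library total, linear axes from 0) in every library of the 4 groups, with the group mean as a bar and the SD as whiskers. Irf1 lay at 470.0 to 898 TPM in exposed null and 356 to 461 TPM in exposed wild type mice, against at most 62.8 TPM in any naive library.

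Irf1 (ENSMUSG00000018899.18, chr11:53660841-53669200, plus strand, GRCm39) had the largest change of the family. Its levels were 677, 898, 495, 470.0 and 675 TPM in exposed null mice and 461, 395, 356, 435 and 396 TPM in exposed wild type mice. They were 45.0, 47.9, 48.8, 46.6 and 51.6 TPM in naive null mice and 62.4, 62.8, 57.6 and 54.6 TPM in naive wild type mice. Every exposed library was above every naive one, and every exposed null library was above every exposed wild type library, the nearest pair being 470.0 and 461 TPM. The exposed null libraries also varied more among themselves, with an SD of 173 TPM around a mean of 643 TPM, against an SD of 40.3 TPM around 408 TPM in exposed wild type mice. The log2 fold change of exposed over naive was 4.09 (SE 0.15, adjusted p = 4.0e-15, 17.1-fold) in null mice and 3.16 (SE 0.16, adjusted p = 8.7e-13, 8.93-fold) in wild type mice. Among all 20501 tested genes these ranked 51st and 111th by p.

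The responses of the genotypes differed for Irf1: its interaction, the log2 response in null minus that in wild type mice, was 0.93 (SE 0.19, 95% confidence interval 0.53 to 1.34, adjusted p = 0.040), the 47th smallest p among all tested genes. Irf1 was the single member called, where 0.332% of all genes were called, 0.18% higher and 0.151% lower. The difference between naive null and naive wild type mice did not pass the test (log2 fold change −0.25, SE 0.14, adjusted p = 0.41), although their libraries did not overlap, and the 2 groups fitted alone gave −0.26 with an adjusted p of 0.028. Exposed null mice had more Irf1 than exposed wild type mice (log2 fold change 0.69, SE 0.13, adjusted p = 0.0015). The interaction call was lost, at an adjusted p of 0.051 to 0.098 and a log2 value of 0.86 to 0.96, when any 1 of 14 libraries was left out. It was kept without naive wild type library 4, exposed wild type library 1 or exposed null libraries 2, 3 or 4, and lost without a filter on low counts (adjusted p = 0.060) or without naive wild type libraries 1 to 3 (0.82, adjusted p = 0.91).

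A gene on the opposite strand, Gm17334, lies inside the Irf1 locus, and no label or file header gives the strand setting of the counting, so reads of the pair cannot be told apart. Gm17334 averaged 14.2 TPM in exposed null, 8.32 TPM in exposed wild type, 1.58 TPM in naive null and 2.29 TPM in naive wild type mice. The nearest tested protein-coding genes on either side were read from the deposited coordinates after the Irf1 values were seen. They lay 62.7 kb (Rad50) and 86.17 kb (Slc22a5) away and did not share the rise of Irf1. Rad50, a DNA repair gene, fell by 0.68 on the log2 scale in null mice (adjusted p = 4.9e-06) and by 0.54 in wild type mice (adjusted p = 1.7e-04). Slc22a5, a carnitine transporter gene, had log2 fold changes of −0.14 in null and 0.16 in wild type mice and did not pass the test.

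Irf2 (chr8:47192767-47300493, plus strand), which encodes the antagonist of IRF1 at shared sites, fell after exposure. Its levels were 45.4, 51.0, 47.2, 40.7 and 39.3 TPM in exposed null mice and 51.6, 53.1, 55.7, 43.0 and 43.4 TPM in exposed wild type mice. They were 77.9, 67.5, 75.3, 76.8 and 77.1 TPM in naive null mice and 80.3, 84.6, 85.8 and 79.7 TPM in naive wild type mice. In TPM all exposed libraries were below all naive ones, and exposed null and exposed wild type libraries overlapped. On log2(TPM + 1) the median change of all tested genes was itself −0.19 in null and −0.22 in wild type mice. The log2 fold change was −0.39 in null mice (SE 0.08, adjusted p = 2.4e-04) and −0.36 in wild type mice (SE 0.08, adjusted p = 0.0010), and the interaction was −0.03 (95% confidence interval −0.26 to 0.20, adjusted p = 0.97). The ratio of Irf1 to Irf2 in TPM was 14.3 ± 3.23 in exposed null and 8.40 ± 1.47 in exposed wild type mice (SD, n = 5 each), and 0.64 ± 0.05 in naive null (n = 5) and 0.72 ± 0.05 in naive wild type mice (n = 4). Irf2 transcripts thus exceeded those of Irf1 in every naive library, and Irf1 exceeded Irf2 in every exposed library.

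**Figure D2:**
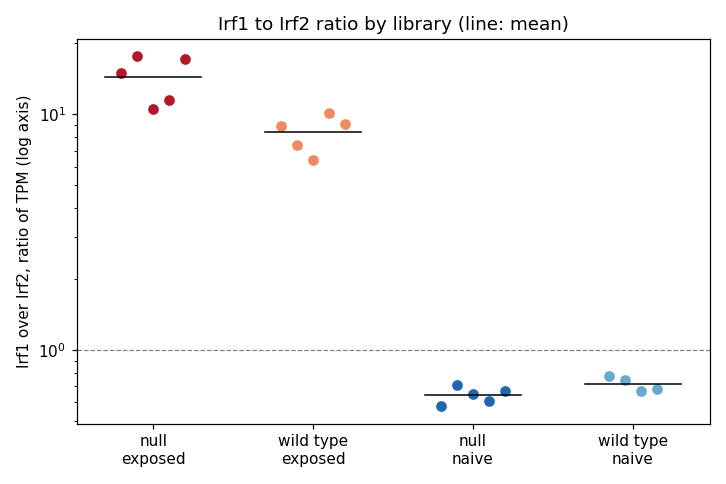
Ratio of Irf1 to Irf2 TPM in each library on a log axis, with the group mean as a line and equality dashed. Exposed null libraries sit at 10.5 to 17.6, exposed wild type at 6.40 to 10.1, naive null at 0.58 to 0.71 and naive wild type at 0.67 to 0.78.

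The RefSeq promoter windows of Irf1, Irf2 and Irf8 that held a match to a searched motif are shown. These 3 were the members with a match, and Irf1 moved opposite to Irf2 and Irf8. The windows run from 250 bases before to 50 after a transcript start on GRCm38.p6, an older build than the GRCm39 of the expression tables, and all 8 members matched, with 11 windows. The motifs, searched on both strands, were the interferon-stimulated response element (ISRE) as GAAANNGAAA, the gamma-activated site (GAS), bound by STAT proteins, as TTCNNNGAA, the NF-κB site, the AP-1 site as TGANTCA and the CRE as TGACGTCA. No pair of matches shown overlaps, and the NF-κB match of Irf1 reads as a match on both strands. Matches are in capitals.
Irf1, chr11:53769764-53770063, plus strand: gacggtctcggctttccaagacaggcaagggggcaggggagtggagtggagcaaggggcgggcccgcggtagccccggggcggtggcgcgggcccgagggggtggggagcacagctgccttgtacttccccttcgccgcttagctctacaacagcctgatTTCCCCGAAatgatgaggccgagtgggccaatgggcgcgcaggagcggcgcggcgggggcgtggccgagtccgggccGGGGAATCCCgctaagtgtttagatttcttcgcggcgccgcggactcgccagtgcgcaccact
Irf2, chr8:46739495-46739794, plus strand: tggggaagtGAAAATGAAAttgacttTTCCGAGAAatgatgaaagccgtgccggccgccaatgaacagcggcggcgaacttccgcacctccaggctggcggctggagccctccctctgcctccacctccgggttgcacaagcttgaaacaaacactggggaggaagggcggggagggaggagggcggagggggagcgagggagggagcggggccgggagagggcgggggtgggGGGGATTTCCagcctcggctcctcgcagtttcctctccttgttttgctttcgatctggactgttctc
Irf8, chr8:120736108-120736407, plus strand: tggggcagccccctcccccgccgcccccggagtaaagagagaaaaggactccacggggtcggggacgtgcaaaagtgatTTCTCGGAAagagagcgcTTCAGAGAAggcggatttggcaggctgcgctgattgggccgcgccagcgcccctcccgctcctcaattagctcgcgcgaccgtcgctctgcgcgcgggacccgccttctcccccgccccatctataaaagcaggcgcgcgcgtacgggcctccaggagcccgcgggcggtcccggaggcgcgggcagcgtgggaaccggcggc
The Irf1 window shown holds a GAS starting at position −90 and an NF-κB motif at −13. Positions are counted from the transcript start, with the base before it as −1. The Irf2 window holds an ISRE at −241, a GAS at −224 and an NF-κB motif at −17. The Irf8 window shown holds a GAS at −171 and another at −153. The background was 32851 RefSeq promoter windows of this length, without repeated windows and without a chromosome that holds no member. Of these, 3.44% hold the ISRE, 8.3% the GAS, 8.46% the NF-κB motif, 7.81% the AP-1 site and 1.79% the CRE. The windows of Irf3, Irf4, Irf5, Irf7 and Irf9 held none of these letters. Irf1 and Irf8 each had another window (chr11:53770223-53770522 and chr8:120738389-120738688), and these held no match either. A match in these windows is a description of letters, and its relation to the exposure response was not tested.

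Irf5 (chr6:29526624-29541870, plus strand) had the second highest level after exposure. It was at 141, 139, 130, 128 and 201 TPM in exposed null mice and 184, 189, 231, 223 and 193 TPM in exposed wild type mice. It was at 52.2, 51.6, 43.7, 52.2 and 40.0 TPM in naive null mice and 91.4, 95.8, 93.5 and 74.2 TPM in naive wild type mice. All exposed libraries were above all naive ones of either genotype, and the lower level of null mice held without overlap in the naive state, while after exposure null library 5 lay within the wild type range. Irf5 rose by 1.96 on the log2 scale in null mice (SE 0.12, adjusted p = 1.9e-11) and by 1.57 in wild type mice (SE 0.13, adjusted p = 2.7e-09). It was lower in null than in wild type mice in the naive state (log2 fold change −0.82, SE 0.12, adjusted p = 9.4e-05; −0.57 and adjusted p = 0.27 without naive wild type libraries 1 to 3) and after exposure (−0.44, SE 0.12, adjusted p = 0.019). The interaction of 0.39 had an unadjusted p of 0.033 and an adjusted p of 0.45. The call in exposed mice was lost without exposed null library 3 or 4 (log2 fold change −0.39, adjusted p of 0.055 to 0.056). Tnpo3, which overlaps the 3′ part of the Irf5 locus on the other strand, rose by 0.21 in null and 0.29 in wild type mice, and its log2 fold change of null over wild type was 0.02 in naive and −0.06 in exposed mice.

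Irf4 (chr13:30933209-30950959, plus strand), a factor of lymphocytes and of alternatively activated macrophages, was the least abundant member in naive mice. It was at 4.06, 4.25, 2.15, 4.59 and 4.75 TPM in exposed null mice and 5.78, 6.90, 8.34, 7.34 and 6.63 TPM in exposed wild type mice. It was at 2.10, 0.91, 1.38, 1.01 and 0.62 TPM in naive null mice and 3.48, 2.76, 2.60 and 2.65 TPM in naive wild type mice. The null libraries were below the wild type libraries in both states, and exposed libraries were above naive libraries within each genotype. The log2 fold change of exposure was 2.05 in null mice (SE 0.25, adjusted p = 6.9e-07) and 1.65 in wild type mice (SE 0.26, adjusted p = 3.1e-05), with an interaction of 0.40 (95% confidence interval −0.33 to 1.12, adjusted p = 0.78). Null mice had less Irf4 than wild type mice in the naive state (log2 fold change −1.17, SE 0.26, adjusted p = 0.0051; −1.06 and adjusted p = 0.39 without naive wild type libraries 1 to 3) and after exposure (−0.78, SE 0.24, adjusted p = 0.045). The call in exposed mice was lost in 15 of 19 fits that left out 1 library (adjusted p of 0.051 to 0.10) with a replicate block (adjusted p = 0.062), with no filter on low counts (adjusted p = 0.073) and without naive wild type libraries 1 to 3 (adjusted p = 0.077). Among the fits that left out 1 library, it was kept without naive null library 1, 2 or 5 or exposed null library 5.

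Irf8 (chr8:121463097-121483433, plus strand), which specifies monocytes and dendritic cells, moved the other way from Irf4 and Irf5 on exposure. It was at 32.9, 53.3, 40.7, 40.7 and 47.0 TPM in exposed null mice and 47.5, 54.6, 63.4, 56.4 and 55.3 TPM in exposed wild type mice. It was at 76.3, 69.7, 70.7, 73.9 and 69.5 TPM in naive null mice and 94.7, 99.1, 95.8 and 91.0 TPM in naive wild type mice. In TPM, where the median of all tested genes also fell, exposed libraries were below naive ones without overlap. Naive null libraries were below naive wild type libraries, and the exposed genotypes overlapped through null library 2. Irf8 fell by 0.38 in null mice (SE 0.09, adjusted p = 0.0022) and by 0.41 in wild type mice (SE 0.10, adjusted p = 0.0018). It was lower in null than in wild type mice before exposure (log2 fold change −0.36, SE 0.10, adjusted p = 0.027) and after it (−0.32, SE 0.09, adjusted p = 0.035), and the interaction was 0.04 (95% confidence interval −0.24 to 0.32). The naive call was lost without naive wild type library 1, 2 or 3 or naive null library 2 or 5 (adjusted p of 0.060 to 0.085), with no filter on low counts (adjusted p = 0.069) and without naive wild type libraries 1 to 3 (adjusted p = 0.80). The exposed call was lost without exposed wild type library 3, 4 or 5 or exposed null library 1, 3 or 4 (adjusted p of 0.064 to 0.083), with no filter on low counts (adjusted p = 0.067), with the exposed libraries alone (adjusted p = 0.12) and without naive wild type libraries 1 to 3 (adjusted p = 0.077). Irf5 over Irf8 in TPM was 3.50 ± 0.75 in exposed null and 3.68 ± 0.22 in exposed wild type mice, against 0.67 ± 0.07 in naive null and 0.93 ± 0.08 in naive wild type mice.

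Irf3 (chr7:44647072-44652272, plus strand), the latent factor of the TBK1 pathway, was the most abundant member in naive mice of both genotypes. Its levels were 97.6, 93.2, 116, 109 and 103 TPM in exposed null mice and 92.3, 122, 105, 103 and 107 TPM in exposed wild type mice. They were 132, 125, 132, 139 and 160 TPM in naive null mice and 148, 155, 150 and 155 TPM in naive wild type mice. In TPM the exposed libraries were below the naive ones without overlap, yet the log2 fold change from scaled counts was 0.09 in null mice (95% confidence interval −0.05 to 0.23, adjusted p = 0.32) and −0.04 in wild type mice (−0.18 to 0.11, adjusted p = 0.73). The 2 scales differ in their reference: on log2(TPM + 1), tested with limma, the median of all tested genes was −0.19 in null and −0.22 in wild type mice. On that scale the log2 fold change of Irf3 was −0.40 in null mice (adjusted p = 1.2e-04) and −0.52 in wild type mice (adjusted p = 1.4e-05), which is −0.22 and −0.31 relative to those medians, so the call for Irf3 differed between the 2 analyses, which change the scaling and the test together. The limma analysis of log2(TPM + 1) split all called genes into 2236 higher and 8414 lower in null mice, where the count fit had 4387 higher and 4793 lower, and to 2251 higher and 8402 lower in wild type mice, where the count fit had 4111 higher and 4134 lower. The directions of Irf1, Irf2, Irf4, Irf5 and Irf8 were the same on both scales. Bcl2l12, which overlaps the start of Irf3 on the other strand, fell by 0.40 in null mice (adjusted p = 0.0014) and by 0.62 in wild type mice (adjusted p = 2.9e-05). Reads of the pair cannot be told apart without the strand setting.

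Irf7 and Irf9, which amplify the type I interferon response, did not pass the test on counts in any of the 5 comparisons. Irf7 (chr7:140842619-140846394, minus strand) was at 5.05, 7.63, 5.58, 5.86 and 5.31 TPM in exposed null and 5.13, 7.11, 3.90, 5.72 and 6.98 TPM in exposed wild type mice. It was at 5.22, 6.90, 5.21, 5.10 and 7.53 TPM in naive null and 3.98, 3.85, 5.25 and 8.01 TPM in naive wild type mice. The groups overlapped in every comparison, and the highest library of all was naive wild type library 4. Its log2 fold change of exposure was 0.28 in null mice (95% confidence interval −0.12 to 0.69, adjusted p = 0.26) and 0.33 in wild type mice (−0.10 to 0.77, adjusted p = 0.22), and without naive wild type library 4 the wild type value was 0.60 with an adjusted p of 0.025. On the TPM scale the null value was −0.02. Phrf1, which overlaps the Irf7 locus on the other strand, rose by 0.39 in null and 0.25 in wild type mice.

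Irf9 (chr14:55841028-55847487, plus strand), the DNA-binding part of ISGF3, was at 20.3, 24.3, 16.0, 18.7 and 14.4 TPM in exposed null and 19.04, 20.3, 15.9, 15.5 and 12.7 TPM in exposed wild type mice. It was at 23.9, 28.8, 23.3, 27.0 and 27.1 TPM in naive null and 21.1, 23.4, 20.6 and 28.9 TPM in naive wild type mice. Exposed and naive libraries overlapped in null mice and not in wild type mice. The log2 fold change was −0.13 in null (95% confidence interval −0.39 to 0.13, adjusted p = 0.44) and −0.16 in wild type mice (−0.44 to 0.12, adjusted p = 0.37), and on log2(TPM + 1) it was −0.47 and −0.48, past the threshold in both. Irf9 overlaps the end of Rnf31 on the same strand over a short stretch, and Rnf31 had log2 fold changes of 0.02 in each genotype.

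**Figure D3:**
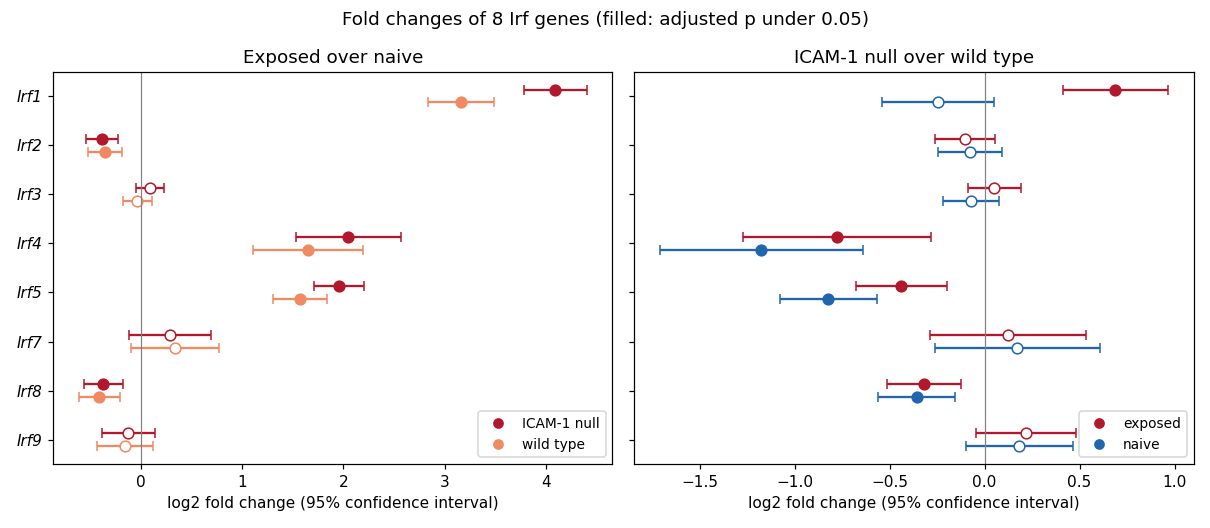
Log2 fold changes of the 8 Irf genes from edgeR, with 95% confidence intervals as bars, for exposed over naive (left, null and wild type mice) and ICAM-1 null over wild type (right, exposed and naive mice). Filled points passed an adjusted p under 0.05: 5 of 8 members in each exposure comparison, 4 of 8 in exposed and 3 of 8 in naive mice between genotypes.

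Between genotypes, Irf4, Irf5 and Irf8 were lower in null than in wild type mice both after exposure and in the naive state, and Irf1 was higher in null mice after exposure. The 4 called members among exposed mice stood against 8.48% of all tested genes, with 1 member higher against 4.43% and 3 lower against 4.04%. The count was 1 or 2 without exposed wild type library 3, 4 or 5 or exposed null library 1, 3 or 4, and 2 with no filter on low counts or without naive wild type libraries 1 to 3. The 3 called among naive mice were all lower, against 6.86% of all genes called, 4.31% higher and 2.55% lower. None was called without naive wild type libraries 1 to 3. The median log2 fold change of the 8 members was −0.03 in exposed and −0.16 in naive mice, beside −0.00 and 0.01 over all tested genes. All comparisons between genotypes share their libraries with the exposure comparisons.

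Cells other than alveolar macrophages can carry Irf4 and Irf8, so marker levels are set beside these differences. Marker counts after exposure stand beside 21.4% of all tested genes higher and 23.4% lower in null mice, and 20.1% and 20.2% in wild type mice. Marker counts between genotypes stand beside 4.43% higher and 4.04% lower in exposed null mice, and 4.31% and 2.55% in naive null mice. The summed level of 11 T and NK cell markers was 337 to 403 TPM in exposed null and 558 to 682 TPM in exposed wild type libraries, and 406 to 488 TPM in naive null and 688 to 783 TPM in naive wild type libraries. Its largest single part was Cd2, which was lower in null mice by −0.92 after exposure and −1.01 in the naive state on the log2 scale. Of 10 tested markers 2 were lower and 0 higher in exposed and 1 lower and 1 higher in naive null mice. After exposure 4 rose in null mice, and 6 rose and 1 fell in wild type mice. Ncr1 averaged at most 0.15 TPM in each group. The summed level of 10 conventional dendritic cell markers was 44.5 to 48.4 TPM in exposed null and 53.0 to 66.8 TPM in exposed wild type libraries, and 31.4 to 48.6 TPM in naive null and 44.4 to 53.1 TPM in naive wild type libraries. Its largest parts were Batf3, with means of 20.6, 25.6, 27.8 and 34.3 TPM in the same groups, and Ccr7, with 14.3, 19.7, 6.40 and 4.93 TPM. None of the 10 passed the test between exposed genotypes, and after exposure 5 rose in null and 6 in wild type mice with none lower. In naive null mice 1 was lower, Clec9a (log2 fold change −2.62, adjusted p = 1.4e-04 by edgeR). Clec9a also had a called interaction (2.96, adjusted p = 0.015 by edgeR). Of 10 monocyte and interstitial macrophage markers, 4 rose and 1 fell after exposure in null mice and 7 rose in wild type mice, while 1 was lower in exposed null mice and 1 higher in naive null mice. They summed to 43.3 to 69.5 TPM in exposed null, 63.9 to 80.0 TPM in exposed wild type, 43.9 to 64.1 TPM in naive null and 41.7 to 68.2 TPM in naive wild type libraries. Of 7 neutrophil markers tested out of 10, 3 rose after exposure in null and 4 in wild type mice, 3 were higher and 2 lower in exposed null mice, and 2 were higher in naive null mice. The 10 summed to 76.3 to 125 TPM in exposed null, 71.0 to 99.9 TPM in exposed wild type, 69.2 to 88.9 TPM in naive null and 36.2 to 60.8 TPM in naive wild type libraries. The 8 plasmacytoid dendritic cell markers summed to 7.82 to 15.3 TPM in exposed null, 7.88 to 14.4 TPM in exposed wild type, 18.6 to 29.0 TPM in naive null and 14.9 to 27.5 TPM in naive wild type libraries. Among them Smim5 fell after exposure in both genotypes. Ccr9 rose in null mice (log2 fold change 2.65, adjusted p = 9.0e-04; 1.39 and adjusted p = 0.082 in wild type mice). Tcf4 was lower and Cox6a2 higher in null mice in both states, and Siglech averaged 0.10 to 0.23 TPM. Red cell markers summed to 130 to 351 TPM in exposed null, 370 to 2399 TPM in exposed wild type, 97.6 to 352 TPM in naive null and 134 to 410 TPM in naive wild type libraries. All 5 rose after exposure in wild type mice and none passed in null mice. All 5 were lower in exposed null mice, and none passed between naive genotypes. Epithelial markers summed to 662 to 886, 1009 to 2993, 455 to 619 and 459 to 603 TPM in the same groups. Of these 10, 7 rose and 1 fell after exposure in null mice, and 8 rose in wild type mice. Between genotypes 1 was higher and 2 lower in exposed null mice, and 1 was higher in naive null mice. The part of these markers in the Irf differences was not tested.

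The order of the family by mean TPM differed between exposed and naive mice. In exposed null mice it was Irf1, Irf5, Irf3, Irf2, Irf8, Irf9, Irf7 and Irf4, with Irf2 and Irf8 overlapping in range. In exposed wild type mice it was Irf1, Irf5, Irf3, Irf8, Irf2, Irf9, Irf4 and Irf7, with Irf8 overlapping Irf2 and Irf4 overlapping Irf7. In naive null mice it was Irf3, Irf2, Irf8, Irf1, Irf5, Irf9, Irf7 and Irf4, and in naive wild type mice Irf3, Irf8, Irf5, Irf2, Irf1, Irf9, Irf7 and Irf4. In the naive groups the ranges of Irf2 and Irf8 and of Irf1 and Irf5 overlapped in null mice, and those of Irf8 and Irf5 and of Irf5 and Irf2 in wild type mice.

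Irf1 made up 62.9% ± 5.6 of the summed TPM of the 8 genes in exposed null and 47.9% ± 3.9 in exposed wild type mice (SD, n = 5 each), against 11.6% ± 0.60 in naive null (n = 5) and 11.6% ± 0.60 in naive wild type mice (n = 4). The share of Irf5 was 14.8% ± 2.7 in exposed null and 23.9% ± 2.4 in exposed wild type mice, against 11.6% ± 1.5 in naive null and 17.4% ± 1.6 in naive wild type mice. The summed level of all 8 was 817 to 1271 TPM in exposed null, 821 to 888 TPM in exposed wild type, 399 to 433 TPM in naive null and 494 to 527 TPM in naive wild type libraries. Without Irf1 the sum averaged 368 TPM in exposed null and 444 TPM in exposed wild type mice, against 366 TPM in naive null and 450.1 TPM in naive wild type mice. The net difference in the sum between exposed and naive libraries was therefore close to that of Irf1 alone. Other members differed in TPM in opposite directions. Mean Irf5 was 148 TPM in exposed and 47.9 TPM in naive null mice, and 204 and 88.7 TPM in wild type mice. Means of Irf2, Irf3, Irf8 and Irf9 were lower in exposed than in naive mice of both genotypes.

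**Figure D4:**
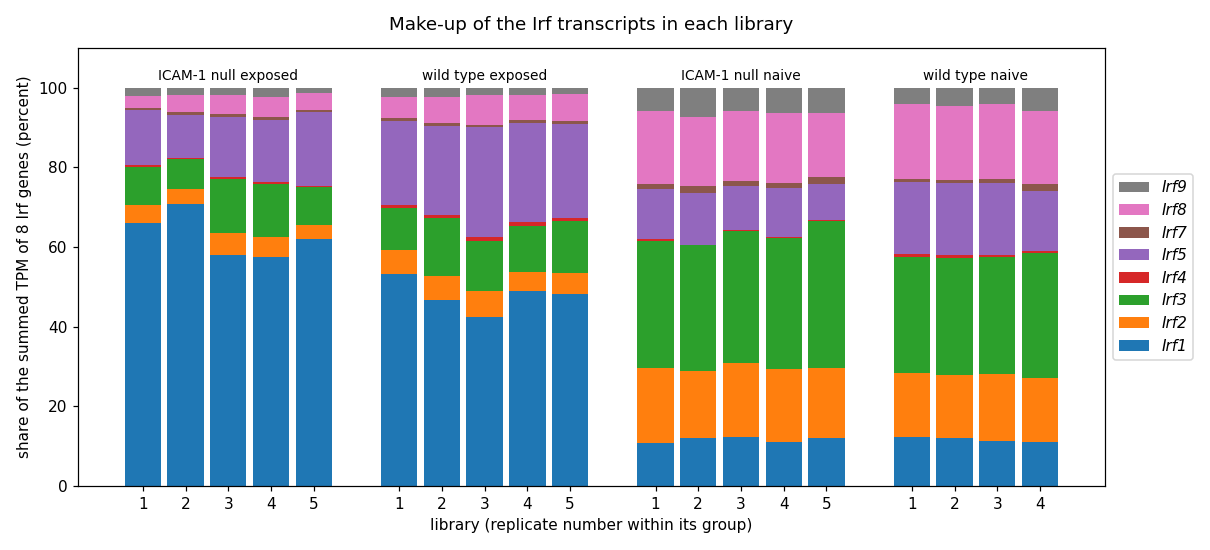
Share of each Irf gene in the summed TPM of the 8 genes, in percent, for each of the 19 libraries. Irf1 made up 57.5% to 70.7% in exposed null and 42.5% to 53.2% in exposed wild type libraries, against 10.9% to 12.2% in naive null and 11.1% to 12.4% in naive wild type libraries.

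Genes whose 4 group means moved most like a called member were found by the Euclidean distance between centred log2 CPM means. The 9201 tested genes compared had at least 5 TPM on average. The Irf members themselves and genes with Gm or Rik names, or with an identifier only, were left out. Nearest to Irf1 were Mst1r, a receptor tyrosine kinase gene (distance 0.14), Adora2a, an adenosine receptor gene (0.34), and Cd14, the lipopolysaccharide co-receptor gene (0.35). Of the genes compared, only Mst1r was within 0.25 of Irf1, with log2 fold changes of 4.10 in null and 3.14 in wild type mice. Nearest to Irf5 were Sh3bp5 (0.20), Ptger4, a prostaglandin E2 receptor gene (0.30), and Pglyrp1, which encodes a peptidoglycan recognition protein (0.30). Nearest to Irf4 were Fam177a and Fam177a2, 2 near-identical copies whose reads may be shared (0.23 each), and Car4, an alveolar macrophage marker (0.25). For Irf8 the nearest were Tmem120a, the alveolar macrophage marker Siglecf and Tmem106c, with 330 genes within 0.25, and for Irf2 they were Mon1b, Zbtb24 and Ndufaf4, with 1626 genes within 0.25.

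Genes of the surrounding lists that are named for a difference between genotypes were picked after their values were seen. The counts of each list after exposure stand beside 44.8% of all tested genes called in null mice (21.4% higher, 23.4% lower) and 40.2% in wild type mice (20.1% higher, 20.2% lower). Their counts between genotypes stand beside 4.43% of all genes higher and 4.04% lower in exposed null mice, and 4.31% higher and 2.55% lower in naive null mice. Upstream of the IRFs, called sensors and adaptors went in both directions. Of 17 genes, 9 rose and 6 fell in null mice, and 9 rose and 2 fell in wild type mice. Tlr2, the receptor for bacterial lipoproteins, rose by 3.14 in null and 3.20 in wild type mice on the log2 scale, Nod2, a muramyl dipeptide sensor, by 2.44 and 2.45, and Ticam1, the TRIF adaptor, by 1.79 and 1.49. Singled out after their values were seen, Mavs and Sting1, adaptors of the RNA and DNA sensing pathways, fell by 0.86 and 0.35 in null mice and by 0.84 and 0.53 in wild type mice. Of 10 genes for kinases and ligases that act on IRF proteins and for scaffolds and adaptors of TBK1, 6 rose and 3 fell in each genotype. Tbk1 rose by 1.02 in null and 1.06 in wild type mice, Tank, which encodes a scaffold of the TBK1 complex, by 1.72 and 2.01, and Traf3, a ubiquitin ligase gene, by 1.21 and 1.31. Between genotypes 1 of the 10 was higher and 2 lower in exposed null mice, and 2 were higher and 2 lower in naive null mice. Ikbkb, which encodes IKKβ, was lower in null mice (−0.35 in exposed and −0.27 in naive mice), as was Tbkbp1, an adaptor gene of TBK1 (−0.50 and −0.68). Ikbke, which encodes IKKε and was singled out after its values were seen, was higher in null mice by 1.44 after exposure and 1.14 in the naive state, with 62.5 ± 15.8 TPM in exposed null and 24.7 ± 7.13 TPM in exposed wild type mice, and 12.2 ± 2.26 TPM in naive null and 5.73 ± 1.43 TPM in naive wild type mice.

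Most interferon transcripts were at or near 0. Of 21 interferon genes, 14 were at 0 in all 19 libraries, where 3 counts correspond to 0.037 to 0.092 CPM, a limit that covers counting error only. How many fragments an estimated count stands for is unknown, and the library totals exceed the 20 M reads planned, so this limit and the low counts below are not fragment numbers. Ifnb1, encoding interferon beta, had 4, 8, 10, 7 and 4 counts in exposed null mice and 2, 12, 0, 0 and 0 counts in exposed wild type mice, and it was at 0 in all 9 naive libraries. It did not pass the filter on low counts. Ifnk and Ifng were the 2 interferon genes tested. Ifnk, encoding interferon kappa, had 27 to 59 counts in exposed null and 21 to 43 in exposed wild type mice, against 0 to 25 in naive null and 0 to 44 in naive wild type mice, where 3 of 4 libraries were at 0. Its log2 fold change of exposure was 2.50 in null mice (SE 0.91, adjusted p = 0.029), which passed the test, and 2.17 in wild type mice (SE 0.98, adjusted p = 0.084), which did not. The interaction was 0.33 (SE 1.27, adjusted p = 0.97). Ifng, encoding interferon gamma, had 6 to 42 counts over the 19 libraries and did not pass in any of the comparisons.

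Among 11 receptor, JAK and STAT genes, 5 rose and 4 fell in null mice and 5 rose and 2 fell in wild type mice. Jak2 rose by 2.22 in null and 2.27 in wild type mice, Il10rb, the shared receptor chain for interferon lambda and interleukin 10, by 0.72 and 0.75, and Jak1 by 0.73 and 0.67. Stat2, which encodes a STAT protein of ISGF3 and was singled out after its values were seen, fell in both genotypes, with log2 fold changes of −0.47 in null (adjusted p = 0.0054) and −0.48 in wild type mice (adjusted p = 0.0076). Between genotypes 3 of the 11 were higher and 2 lower in exposed null mice, and 3 higher and 1 lower in naive null mice. Ifnar1, a type I interferon receptor chain also singled out later, was among the higher ones in both (0.77 and 0.45).

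Of 28 genes known as targets of ISGF3, 4 rose and 6 fell in null mice and 6 rose and 6 fell in wild type mice, shares close to or below those of all tested genes, with a median log2 fold change of −0.09 in null and 0.20 in wild type mice, against 0.02 over all tested genes in each. Cxcl10, a chemokine gene that NF-κB also drives, rose by 4.58 in null and 4.85 in wild type mice, and Isg20, an exonuclease gene, by 0.88 and 1.01, while Siglec1, a macrophage sialic acid receptor gene, fell by 0.78 and 0.82. Mx1 and Rsad2, antiviral genes named after their values were seen, did not pass the test, with log2 fold changes of −0.32 and 0.30 in null and 0.27 and 1.11 in wild type mice. Of 28 genes known as targets of interferon gamma and IRF1, 10 rose and 6 fell in null mice and 8 rose and 5 fell in wild type mice, with medians of 0.18 and 0.15. Ptgs2, encoding cyclooxygenase 2, rose by 7.79 in null and 8.02 in wild type mice, Casp4, encoding an inflammatory caspase, by 2.83 and 2.88, and Il12b, encoding interleukin 12 p40, by 4.29 and 4.85. In exposed mice 2 of the 28 were higher in null than in wild type mice, Il15ra (0.96) and Gbp5 (0.83), and none was lower, beside 4.43% and 4.04% of all tested genes.

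**Figure D5:**
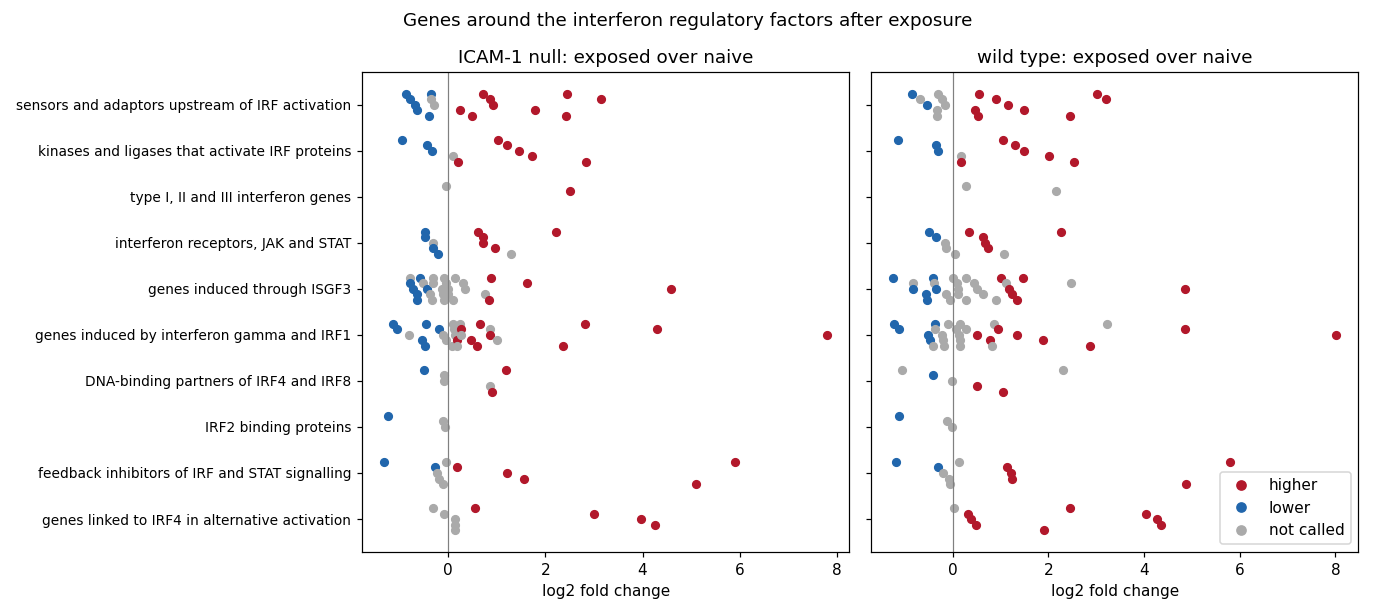
Log2 fold change of exposed over naive (x axis) for each tested gene of 10 lists around the IRFs (rows, points spread vertically for legibility), in ICAM-1 null mice on the left and wild type mice on the right. Red points were higher and blue points lower at an adjusted p under 0.05; the ISGF3 list holds 4 red and 6 blue points in null and 6 red and 6 blue points in wild type mice.

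Of 6 DNA-binding partners of IRF4 and IRF8, 2 rose and 1 fell in each genotype. Batf, a partner of IRF4 at AP-1 composite sites, rose by 1.20 in null and 1.05 in wild type mice, Spi1, which encodes PU.1, by 0.90 and 0.51, and Tcf3 fell by 0.49 and 0.41. Spi1 was also higher in exposed null than exposed wild type mice (0.53, adjusted p = 0.0013). Of 3 IRF2 binding proteins, which act as co-repressors, Irf2bp1 fell by 1.23 in null and 1.13 in wild type mice, and Irf2bp2 and Irf2bpl did not pass the test. Of 11 feedback inhibitors, 5 rose and 2 fell in each genotype, with Socs3 at 5.90 in null and 5.81 in wild type mice, Tnfaip3, the deubiquitinase A20, at 5.10 and 4.88, and the phosphatase gene Ptpn2 at 1.21 and 1.22. In exposed mice Socs1 and Tnfaip3 were higher and Ptpn6 lower in null than in wild type mice (0.83, 0.48 and −0.35).

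Of 9 genes linked to IRF4 in alternative activation, 4 rose in null and 8 in wild type mice, and none fell. Kdm6b, a histone demethylase gene upstream of Irf4, rose by 4.26 in null and 4.27 in wild type mice, and the chemokine genes Ccl22 and Ccl17 by 3.0 and 3.97 in null and by 4.04 and 4.35 in wild type mice. For Ccl22 the responses differed, with an interaction of −1.04 (SE 0.19, adjusted p = 0.014). It averaged 170.1 ± 18.4 TPM in exposed null and 152 ± 21.4 TPM in exposed wild type mice, and 27.2 ± 5.70 TPM in naive null and 12.02 ± 1.13 TPM in naive wild type mice. It was higher in naive null than naive wild type mice by 1.24 (adjusted p = 2.8e-06), the opposite direction to Irf4 itself. In exposed null mice Retnla and Arg1 were lower than in exposed wild type mice (−2.25 and −1.35).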

How the data were processed

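RNA from pelleted lavage cells was selected for poly(A) and read in pairs (150 bases each, 20 M reads planned), per the labels' protocols. STAR, StringTie version 2 and GRCm39 are named in the submitters' processing notes. The authors deposited estimated counts per gene, whole and unscaled for depth, and TPM, which the authors scaled within each library. Counting options and strand: not given in the sources used here.

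Estimated counts of all 19 libraries were fitted in 1 model with edgeR 4.0.16 (R 4.3.3), TMM scaling and the filterByExpr defaults (minimum count 10, total 15), which left 20501 genes, with 15 residual degrees of freedom. The quasi-likelihood F test, two-sided, was applied to 5 contrasts with Benjamini-Hochberg adjustment over all tested genes, and calls are at an adjusted p under 0.05. The fit was tested on simulated data. Groups came from the titles and the genotype and treatment labels. Levels are TPM, as mean ± SD; confidence intervals are 95%. Alternatives used limma 3.58.1 on log2(TPM + 1) or log2(TPM + 0.1), DESeq2 1.42.0, other scalings and filters, thinned counts, a replicate block and left-out libraries. Replicate numbers did not pair the libraries (correlations of deviations between −0.05 and 0.07). No libraries of a group held identical counts. Genes of each list were named for the 3 smallest adjusted p in wild type mice unless said otherwise. The members and lists were chosen with earlier results of these data known. Promoters and motifs came from RefSeq sequences of GRCm38.p6.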

Additional observations from a re-analysis of the deposited data

Results flagged for a closer look

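In 3 of 32 sets of values (8 genes in 4 groups) a library lay far from the others of its group by Dixon's test, which chance alone gives in about 1 of 20 groups. Irf4 was at 2.15 TPM in exposed null library 3, against 4.06 to 4.75 TPM in the other 4. Irf5 was at 201 TPM in exposed null library 5, against 128 to 141 TPM in the other 4. Irf2 was at 67.5 TPM in naive null library 2, against 75.3 to 77.9 TPM in the other 4.

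The response to exposure differed between genotypes for Irf1 (interaction 0.93 on the log2 scale, higher in null mice, adjusted p = 0.040 by edgeR) and for Ccl22 (interaction −1.04, smaller in null mice, adjusted p = 0.014). The Irf1 call did not hold in 14 of the 19 fits that left out 1 library.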

How the results depend on the processing

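Irf1, Irf4 and Irf5 kept the direction and the call of their rise after exposure in both genotypes under all alternatives run, and Irf2 and Irf8 kept their fall except in wild type mice without naive wild type libraries 1 to 3 (−0.33 and −0.38, adjusted p = 0.11 and 0.14). That setting, in which the single naive wild type library left is assumed to vary like the other groups, gave 3 called members in wild type exposure, 0 between naive genotypes, 2 between exposed genotypes and 0 for the interaction, and 4253, 321 and 10 called genes of all for wild type exposure, naive genotypes and the interaction. It also turned Irf7 to −0.26 in wild type exposure, −0.40 between naive genotypes and 0.53 for the interaction, Irf9 to −0.071 between naive genotypes and Irf8 to −0.0086 for the interaction. Irf4, Irf5 and Irf8 then gave −1.06, −0.57 and −0.31 between naive genotypes, and Irf1 gave 0.82 for the interaction. With no filter on low counts, which adds genes to the adjustment, 2 members differed between exposed genotypes, 0 members passed for the interaction, and 38 genes did. With only the libraries of the exposed groups, Irf8 between exposed genotypes was −0.33 (adjusted p = 0.12). DESeq2 called 266 genes for the interaction and limma on log2(TPM + 1) called 110, against 68. On log2(TPM + 1) and log2(TPM + 0.1), Irf3 in null exposure turned to −0.40 and −0.41, Irf7 to −0.019 and −0.021, Irf3 between exposed genotypes to −0.0270 and −0.0273, and the Irf2 interaction to 0.0033 and 0.0023. The cause of these changes was not tested.

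With the replicate number as a block, members called were 5, 5, 3, 3 and 1 for null exposure, wild type exposure, exposed genotypes, naive genotypes and the interaction, against 5, 5, 4, 3 and 1; Irf4 between exposed genotypes was −0.79 (adjusted p = 0.062) and the Irf9 interaction turned to −0.019. No other member's call changed with the block. Leaving out 1 library at a time gave 1 to 4 called members between exposed genotypes, 0 to 1 for the interaction and 34 to 82 genes of all for the interaction. The interactions near 0 spanned −0.082 to 0.015 for Irf2, −0.32 to 0.06 for Irf7, −0.049 to 0.12 for Irf8 and −0.083 to 0.11 for Irf9. Irf7 and Irf4, with the fewest counts, had the widest intervals.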
